A study of Mus musculus with 37 samples.

Results

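The genes described here are the long intergenic noncoding RNAs (lincRNAs) that were expressed in fully grown mouse germinal vesicle (GV) oocytes. They were chosen by their level. A gene was taken if its biotype was lincRNA, if it was listed in the tables of ZH GV oocytes, CabZ 2-cell embryos and Zscan4-injected embryos, and if its mean was at least 1 FPKM (fragments per kilobase, scaled to library size) over the 8 ZH libraries, with 6 imprinted or imprint-linked RNAs (H19, Meg3, Rian, Mirg, Kcnq1ot1 and Airn) left out. Of 25053 genes in the ZH table, 2007 were lincRNAs, 680 of these were in all 3 tables, and 152 met the rule. Just inside the threshold were 4933439N14Rik (1.001 FPKM), 2310031A07Rik (1.021) and B020014A21Rik (1.041), and just outside were Gm42903 (0.9988), 1700034K08Rik (0.9981) and Gm30198 (0.9965).

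The study asked what the Hira complex, which places histone H3.3 on chromatin outside replication, does in the oocyte. In ZH KO oocytes Zp3-Cre, a Cre driven by a zona pellucida gene promoter that is active in growing oocytes, deleted floxed Hira, and in CabZ KO oocytes it deleted floxed Cabin1, a subunit of the same complex. The controls (ZH Het and CabZ Het) were littermates that carried Zp3-Cre with 1 floxed allele, and the females had been superovulated with PMSG. The floxed lines were on C57BL/6 backgrounds and the wild-type mice were C57BL/6, while the background of the Zp3-Cre line is not given. How the CabZ 2-cell embryos for RNA-seq were obtained, by mating or by activation, is not given in the sources used here. A further set of 2-cell embryos was obtained by activating wild-type oocytes without sperm after injection of Zscan4d RNA (labelled Zscan4 OE) or GFP RNA. The methods describe each RNA library as a pool of 10 oocytes, whereas the sample labels speak of individual cells, and these cannot be reconciled from the files. There were 4 libraries per group, except 3 for Zscan4 OE, and ATAC-seq was done on 3 libraries per CabZ genotype of GV oocytes, with about 100 oocytes in each. Nothing says whether the pools came from separate females, so errors measure the spread between libraries, be they pools or single cells. The age of the animals is not given in the sources used here.

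A lincRNA is a long transcript that lies apart from protein-coding genes and is not translated into a known protein. Most are capped, spliced and polyadenylated like mRNAs, but they are less conserved and often restricted to one tissue. In the mouse oocyte many transcripts start in retrotransposon sequence, because long terminal repeats act as promoters there, and fully grown oocytes stop transcribing and store the RNA that they have made. After fertilisation, stored RNA is degraded and the embryonic genome is switched on, which in the mouse occurs mainly at the 2-cell stage.

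In these libraries 5819215 to 21869719 reads lay on genes. Values were FPKM over the whole span of a gene, introns included, so a spliced gene with long introns reads low, and levels of different genes are compared only on that scale. Cabin1 averaged 0.119 FPKM in CabZ Het and 0.0242 in CabZ KO GV oocytes, and 0.322 and 0.134 in the 2-cell embryos. Hira had 2 to 14 reads per ZH Het and 0 to 13 per ZH KO library, too few to check those labels. Zscan4d averaged 117 FPKM in GFP and 79.4 in the libraries labelled Zscan4 OE, so the injected RNA was not visible as a higher level at this stage. All 12 oocyte markers had a mean of at least 1 FPKM in the 4 GV groups. The markers of granulosa and cumulus cells (11 of 12 listed in the ZH and 8 in the CabZ table) summed to 0.443 to 0.797 FPKM in ZH Het, 1.22 to 2.22 in ZH KO, 0.819 to 1.24 in CabZ Het and 0.946 to 1.47 in CabZ KO GV oocytes. Most of the difference in the ZH line lay in Inha, a subunit of inhibin, with a mean of 0.135 FPKM in ZH Het and 1.2 in ZH KO, while Fshr, the receptor for follicle-stimulating hormone, had 0.00439 in CabZ Het and 0.19 in CabZ KO, and Has2 was under 0.01 in all 4 groups. Their part in the results was not tested. No library correlated with the others of its group at a median r under 0.914 over the genes tested, and ZH KO replicate 1 had the lowest value among GV oocytes (0.931).

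The expressed lincRNAs were small genes with few exons. Their median span was 4147.5 bp, against 22489 bp for all protein-coding genes of the table, and ranged from 384 to 90416 bp. In GENCODE M21, 146 had the same name and coordinates, of which 135 had 2 or more exons and 11 had 1. A total of 100 carried a Gm number, 37 a RIKEN symbol and 15 another name. A protein-coding gene lay within 10 kb of 55, 18 overlapped one, and 18 had a protein-coding start within 1 kb in the opposite orientation. Of genes with names known from other tissues, 3 of 19 listed snoRNA hosts (Snhg6, Snhg18 and Epb41l4aos) and 1 of 9 listed nuclear or X-linked regulators (Malat1) were among the 152, and 0 of 15 other well-studied RNAs.

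Some of the reads on these genes cannot be told from those of another gene. A stretch of at least 150 bases was shared at 98% identity or more with another gene by 26 of the 152, and 7 shared at least 90% of a transcript. Gm10076 (chr14:105681828-105682212, 1 exon) was 99.5% identical over 383 of its 384 bases to Rpl41, which encodes a ribosomal protein, and Gm26825 was 99.6% identical over 1940 bases to Hspa8, a constitutive heat shock cognate protein. Platr30 and Gm17575 were such a pair among themselves, as were Gm2309 and E330016L19Rik. RefSeq lists Gm42418 as a synonym of Rn18s-rs5, an 18S ribosomal RNA pseudogene, and Gm26917 lies beside it. The libraries were unstranded, so reads of overlapping antisense genes could not be separated either.

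The sequence at the start of the genes set the lincRNAs apart from the mRNAs of the same oocytes. In the 300 bases from 250 before to 50 after the annotated start (GRCm38.p6), all 152 could be read. The start lay in letters that the RefSeq genome masks as repeats in 52 (34.2%), compared with 23.6% of 1855 lincRNA genes of the table that are not in the set, 7.35% of 4351 protein-coding genes at 1 FPKM or more on average, and 11.3% of all 25047 genes read. The median GC content was 48.7%, against 58% for the expressed protein-coding genes, and the median number of CG dinucleotides was 3 against 18. The letters GGGCGG, on either strand, stood in 17.1% of the lincRNA windows, 39.8% of all windows and 56.2% of those of expressed protein-coding genes. TATAAA stood in 18.4%, 13% and 9.01% of the same 3 sets, and CCAAT in 36.8%, 38.3% and 43.3%. The other lincRNA genes had a median GC content of 48%, GGGCGG in 16.1% and TATAAA in 16.4%, so the base composition was that of lincRNA genes as annotated rather than of the expressed ones alone.

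**Figure D1:**
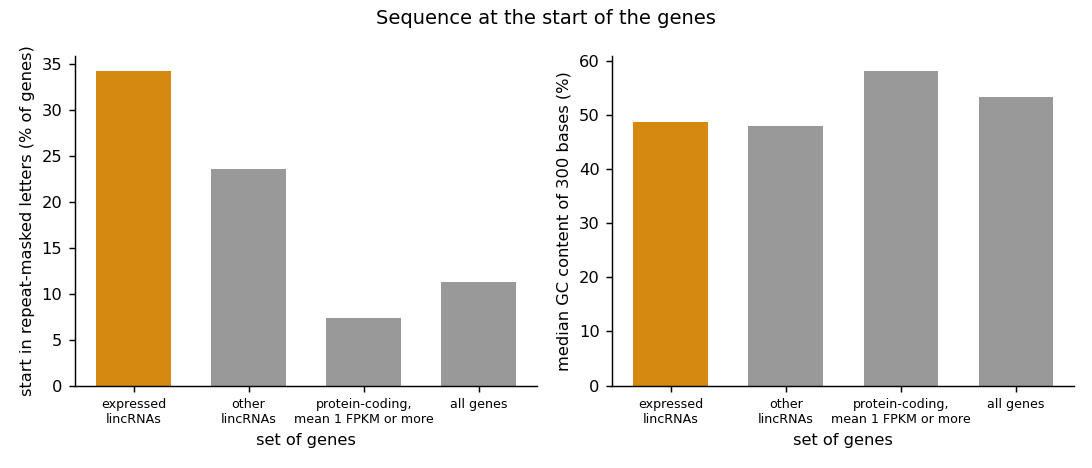
Bars give, for 4 sets of genes, the share whose annotated start lies in repeat-masked letters (left, % of genes) and the median GC content of the 300 bases around the start (right, %). The expressed lincRNAs are highest on the left (34.2%) and close to the other lincRNA genes on the right (48.7% and 48%).

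Some of the starts also shared sequence with each other. Exact runs of at least 20 bases were shared, in either orientation, by 112 pairs of these windows, which involved 29 lincRNAs, and 21 of the 29 started in repeat-masked letters. The matching count for windows of other genes is not given here, so whether such sharing is particular to these lincRNAs was not tested. The largest linked group held 18 genes, of which 16 started in such letters and 15 had an ATAC-seq peak at the start in at least 1 library. The run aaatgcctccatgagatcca, counted on both strands, was in 12 of the 152 windows (7.89%) and in 51 of all 25047 (0.204%). These 12 were C87198, Gm10857, Gm28784, Gm3143, Gm31678, Gm31925, Gm35191, Gm37724, Gm38025, Gm42947, Gm43042 and Gm44113, and they include 2 of the 6 most abundant lincRNAs of ZH Het oocytes, Gm37724 and Gm38025. The run was found after the sequences had been seen, and the shares carry no test.

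The windows below are printed 5′ to 3′ on the strand of the gene, from GRCm38.p6, with repeat-masked letters in capitals. The first 5 are of named lincRNAs with an ATAC-seq peak at the start in 3 to 5 libraries, and the last 2 are of the abundant Gm37724 and Gm38025, added after their values were seen because they carry the shared run. Gm37724 and C87198 hold it on opposite strands, and the longest exact run that the pair shares is 67 bases.
Gm42980 (chr5:127578500-127578799, plus strand): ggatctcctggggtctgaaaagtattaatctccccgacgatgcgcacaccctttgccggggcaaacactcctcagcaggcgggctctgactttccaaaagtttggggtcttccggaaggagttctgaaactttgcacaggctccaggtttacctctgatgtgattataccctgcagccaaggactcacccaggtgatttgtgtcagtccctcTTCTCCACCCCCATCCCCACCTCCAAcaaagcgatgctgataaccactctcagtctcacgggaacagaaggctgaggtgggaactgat
Gm36307 (chr1:175574059-175574358, plus strand): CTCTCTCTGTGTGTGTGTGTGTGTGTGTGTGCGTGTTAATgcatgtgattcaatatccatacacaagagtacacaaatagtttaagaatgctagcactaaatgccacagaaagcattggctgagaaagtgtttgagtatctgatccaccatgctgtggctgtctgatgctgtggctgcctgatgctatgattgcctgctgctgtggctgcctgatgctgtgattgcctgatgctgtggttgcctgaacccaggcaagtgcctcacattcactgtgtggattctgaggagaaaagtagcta
Gm1070 (chr6:71293515-71293814, plus strand): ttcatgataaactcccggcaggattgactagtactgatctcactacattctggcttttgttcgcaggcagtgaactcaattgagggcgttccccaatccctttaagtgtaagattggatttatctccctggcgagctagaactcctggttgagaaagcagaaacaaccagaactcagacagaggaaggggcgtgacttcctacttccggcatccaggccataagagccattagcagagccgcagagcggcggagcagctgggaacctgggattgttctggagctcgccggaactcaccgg
Gm5 (chr5:150502256-150502555, minus strand): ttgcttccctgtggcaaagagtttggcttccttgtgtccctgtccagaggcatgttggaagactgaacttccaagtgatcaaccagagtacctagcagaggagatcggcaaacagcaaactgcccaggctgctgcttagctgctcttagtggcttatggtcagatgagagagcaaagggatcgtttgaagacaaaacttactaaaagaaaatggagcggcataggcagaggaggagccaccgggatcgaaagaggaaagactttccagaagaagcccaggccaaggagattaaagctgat
C87198 (chr12:56590809-56591108, plus strand): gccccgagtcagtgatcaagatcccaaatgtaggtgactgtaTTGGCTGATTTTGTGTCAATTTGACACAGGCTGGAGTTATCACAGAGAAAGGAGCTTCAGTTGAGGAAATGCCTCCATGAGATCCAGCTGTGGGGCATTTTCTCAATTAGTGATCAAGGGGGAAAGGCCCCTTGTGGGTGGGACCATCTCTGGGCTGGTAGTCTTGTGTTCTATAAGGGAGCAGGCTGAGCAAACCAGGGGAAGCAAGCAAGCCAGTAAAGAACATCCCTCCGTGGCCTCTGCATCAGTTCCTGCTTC
Gm37724 (chr1:33064880-33065179, plus strand): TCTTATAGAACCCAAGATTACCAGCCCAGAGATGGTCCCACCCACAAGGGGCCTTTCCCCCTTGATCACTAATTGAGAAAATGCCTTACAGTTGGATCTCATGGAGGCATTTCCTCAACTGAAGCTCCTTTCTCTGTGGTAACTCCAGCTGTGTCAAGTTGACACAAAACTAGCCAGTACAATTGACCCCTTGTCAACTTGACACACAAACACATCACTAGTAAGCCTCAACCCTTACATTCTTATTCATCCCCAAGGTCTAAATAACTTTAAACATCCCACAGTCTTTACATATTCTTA
Gm38025 (chr3:31340762-31341061, plus strand): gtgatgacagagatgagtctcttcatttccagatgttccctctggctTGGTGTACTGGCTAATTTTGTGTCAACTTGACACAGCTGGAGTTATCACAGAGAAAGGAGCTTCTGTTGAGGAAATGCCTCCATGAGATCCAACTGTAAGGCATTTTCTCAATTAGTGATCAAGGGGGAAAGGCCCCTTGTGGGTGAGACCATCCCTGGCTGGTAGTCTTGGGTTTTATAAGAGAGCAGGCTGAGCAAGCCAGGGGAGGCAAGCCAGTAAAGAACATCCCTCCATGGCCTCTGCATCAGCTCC

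C87198 (86% of the window masked, start included), Gm37724 (100%) and Gm38025 (84.3%) are largely repeat, whereas Gm1070 and Gm5 have none, and in Gm42980 and Gm36307 the start lies outside the masked letters (8.67 and 13.3%). CCAAT or its reverse complement was found in the windows of Gm36307, Gm1070 and C87198, and not in those of Gm42980 and Gm5.

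Abundance was concentrated in few genes. In ZH Het oocytes, 129 of the 152 had a group mean of at least 1 FPKM, 31 of at least 10 and 6 of at least 100, with a median of 2.75. These levels chose the genes and are given as a description. The most abundant was Gm37724 (chr1:33065130-33066351, 1 exon), with 372, 436, 216 and 230 FPKM in the 4 ZH Het libraries. It was followed by Gm42980 (chr5:127578750-127580110) with 188, 173, 176 and 190 FPKM, and Gm38025 (chr3:31341012-31345281) with 213, 220, 135 and 126, and these groups of 4 overlap. Gm10076 had 150, 114, 181 and 227 FPKM, Gm26825 had 133, 122, 110 and 121, and C86187 (chr7:46967711-46975912) had 107, 129, 114 and 79.1. No function is assigned here to any of these genes. The same 6 had 98.1 to 324 FPKM in each CabZ Het GV library, so they were abundant in both lines of control oocytes, although the tables were normalised separately.

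The levels at the 2-cell stage were spread wider. CabZ Het embryos had a median of 2.14 FPKM over the 152, with 104 at 1 FPKM or more, and CabZ KO embryos a median of 7.14, with 129. The embryos from activated oocytes had medians of 2.83 (GFP) and 3.46 (labelled Zscan4 OE), with 112 at 1 FPKM or more in both. The lincRNAs took 0.968 to 1.36% of the reads on genes in CabZ Het and 2.47 to 2.78% in CabZ KO 2-cell embryos, and these ranges do not overlap. Summed FPKM, which weights short genes more, went the other way, with 6450 to 7150 in CabZ Het and 5740 to 6210 in CabZ KO embryos, and Gm10076 held most of the Het sum. Without Gm10076 the sums were 1810 to 2270 and 4670 to 5070 FPKM. The embryos from activated oocytes had read shares of 2.12 to 2.35% (GFP) and 2.27 to 2.47% (labelled Zscan4 OE). These were above the shares of CabZ Het embryos, though taken over a different list of genes. In GV oocytes the share was 1.22 to 1.32% in ZH Het and 1.12 to 1.18% in ZH KO, and 1.25 to 1.43% in CabZ Het and 1.25 to 1.34% in CabZ KO. In a library of pooled cells, fewer cells with a transcript and less of it per cell cannot be told apart.

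**Figure D2:**
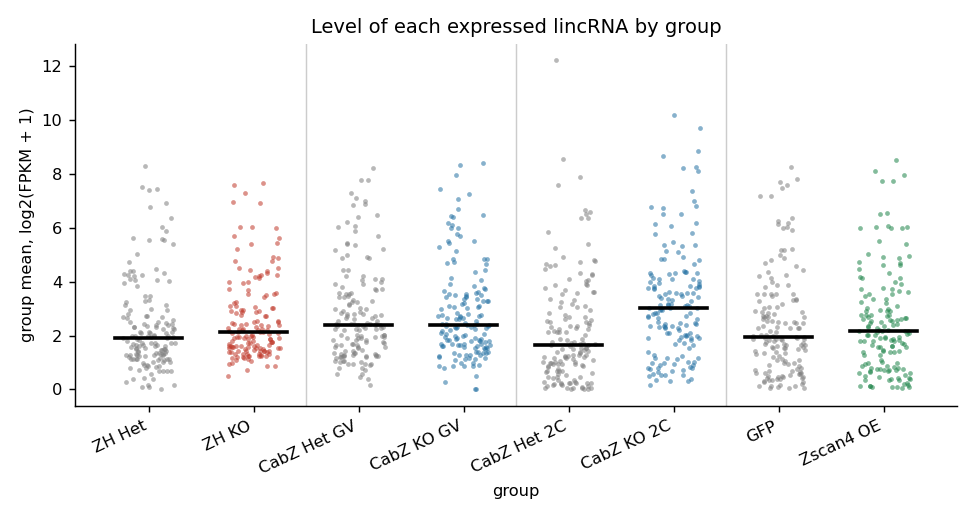
Each point is 1 of the 152 lincRNAs and shows its mean in 1 of the 8 groups, as log2(FPKM + 1), with a black bar at the median. Control groups are grey, and the CabZ KO 2-cell embryos have the highest median (7.14 FPKM).

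When Hira was deleted, lincRNAs moved in both directions. The same libraries chose the genes, so what follows is a description and no p is given. On the log2(FPKM + 1) scale, 23 of the 152 were higher and 10 lower in ZH KO than in ZH Het by the call used throughout (more than 2-fold with a limma adjusted p below 0.05), where 10.5% of all 5792 genes tested were higher and 7.2% lower. Of the 23, 12 had a Het mean under 1 FPKM and were in the set only because of the KO libraries. Among the 123 with both means at 1 FPKM or more, 11 were higher (8.94%) and 9 lower (7.32%), close to the 7.28% and 7.41% of all 4875 such genes. With each library shifted to the same median, 19 were higher and 14 lower, and with each scaled to the reads of the table, 34 and 9. The median difference of the 152 was 0.15, against -0.04 for all genes tested, and became -0.00 and 0.29 under these scalings, when that of all genes became -0.19 and 0.08.

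The largest rise was that of Gm26909 (chr8:22644861-22646287, 2 exons), a gene that overlaps the DNA polymerase beta gene Polb on the opposite strand. It had 1.82, 1.53, 4.61 and 5.28 FPKM in ZH Het and 47.8, 38.1, 33.3 and 51.1 in ZH KO, a difference of 3.43 ± 0.30 (SE, n = 4 and 4) on the log2(FPKM + 1) scale. Polb itself averaged 2.46 and 1.8 FPKM, a difference of -0.31 ± 0.12, so the gene on the other strand was not higher. Gm43263 (chr8:69473492-69474843) had 17.2, 22.5, 20.1 and 20.4 FPKM in ZH Het and 192, 108, 74.6 and 116 in ZH KO, a difference of 2.48 ± 0.25. Gm12031 had 0 to 11 reads per ZH Het and 56 to 111 per ZH KO library and differed by 2.48 ± 0.26, Gm32496 by 2.20 ± 0.19 and Gm19554 by 1.97 ± 0.16. These 5 were picked as the largest rises, so it is a description that in each the highest Het library was below the lowest KO library. The share of all genes tested without such overlap is not given here. Gm12031 averaged 0.313 FPKM in ZH Het and entered the set only through the KO libraries. Malat1, an abundant RNA of nuclear speckles in many tissues, was scarce in these oocytes, at 0.469 to 2.47 FPKM in ZH Het and 5.76 to 6.44 in ZH KO, a difference of 1.62 ± 0.24.

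The lincRNAs that were lower in ZH KO included abundant ones. C86187 had 107, 129, 114 and 79.1 FPKM in ZH Het and 10.3, 17.8, 27.7 and 14.3 in ZH KO, the largest decrease of the 152 (-2.61 ± 0.27). Gm38025 averaged 173 FPKM in ZH Het and varied from 14.5 to 99.5 in ZH KO (-2.02 ± 0.50). Gm1070 had 45.6 to 78.8 FPKM in ZH Het and 12.2 to 33.9 in ZH KO (-1.58 ± 0.30), 0610033M10Rik had 37.2 to 53 and 12.4 to 17.7 (-1.57 ± 0.16), and Gm839 had 44.3 to 47.2 and 11.7 to 25.1 (-1.28 ± 0.20). The groups did not overlap in any of the 5, which is a description, since they were picked as the largest falls. ZH KO replicate 1 had the lowest level of Gm38025, Gm1070 and C86187, and the oocyte markers summed to 1540 to 2880 FPKM over the ZH KO and 2920 to 2980 over the ZH Het libraries. Markers of the 2-cell embryo summed to 3.82 to 5.21 FPKM in ZH Het and 110 to 184 in ZH KO. The part of these differences in the results was not tested.

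The CabZ GV oocytes were not used to choose the genes. There 141 of the 151 listed lincRNAs passed the filter of a mean of 1 FPKM, and 7 rose and 2 fell in CabZ KO, where 2.07% of all 6339 genes tested rose and 0.836% fell. Among the 133 with both means at 1 FPKM or more, 6 rose (4.51%, against 1.64% of all such genes) and 1 fell. The median difference was 0.03, against -0.02 over all genes. On the values as deposited, 7 rose and 5 fell. The 2-cell embryo markers summed to 6.09 to 7.69 FPKM in CabZ Het and 26.8 to 51.8 in CabZ KO oocytes, and their part was not tested.

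1700116B05Rik (chr16:50783409-50784092, 2 exons) rose most in CabZ KO oocytes. It had 15.1, 25.7, 9.37 and 20 FPKM in CabZ Het and 50, 58.7, 84.9 and 57 in CabZ KO, a difference of 1.83 ± 0.27 on the log2(FPKM + 1) scale (limma, adjusted p = 0.00215). Gm16211 rose from a mean of 1.39 to 5.69 FPKM (1.46 ± 0.20, limma adjusted p = 0.00153), Gm15389 from 3.85 to 10.7 (1.27 ± 0.20, limma adjusted p = 0.00316), Gm33973 from 3.87 to 10.3 (1.23 ± 0.12, limma adjusted p = 0.000304) and Gm43409 from 1.34 to 4.18 (1.16 ± 0.13, limma adjusted p = 0.000543). In these 5 the Het and KO libraries did not overlap, which is a description, since they were picked as the largest rises. The share of all genes tested without overlap is not given here. The nearest protein-coding genes were Zfp534, a zinc finger gene 2647 bp from Gm16211, with 0.467 FPKM in Het and 1 in KO, and Psmd9, a proteasome assembly gene that overlaps Gm43409, with 2.12 and 2.68 (difference 0.25 ± 0.10, limma adjusted p = 0.16). Gm12031, which was also called, had 2 to 9 reads per Het and 6 to 26 per KO library (1.10 ± 0.28, limma adjusted p = 0.0287). Its means were 0.634 FPKM in CabZ Het and 2.63 in CabZ KO, so it passed the filter through the KO libraries. The call was lost when any one of Het replicates 1, 2 and 3 or KO replicates 1, 3 and 4 was left out (limma adjusted p between 0.0517 and 0.0808).

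Gm15631 and Gm31717 fell in CabZ KO oocytes. Gm15631 (chr6:105673064-105677582), which starts 78 bp from the axonal adhesion gene Cntn4, in the opposite orientation, had 1.33, 2.63, 2.01 and 2.63 FPKM in CabZ Het and 0.575, 0.169, 0.277 and 0.558 in CabZ KO (-1.16 ± 0.17, limma adjusted p = 0.00177). Each KO library of Gm15631 was below 1 FPKM, so the gene passed the filter through the Het libraries, and its p is a description. Gm31717 had 9.54, 11.1, 9.69 and 8.84 FPKM and 4.08, 3.44, 3.74 and 4.17 (-1.15 ± 0.10, limma adjusted p = 0.000167). In the ZH line both genes were higher in KO than in Het, with 0.939 to 1.63 against 2.37 to 3.99 FPKM for Gm15631 and 3.35 to 5.27 against 6.65 to 11.1 for Gm31717. The difference between the lines was not tested, because the tables were normalised separately.

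Of lincRNAs tested in both GV tables, 3 of the 18 higher in ZH KO (16.7%) were among the 7 that rose in CabZ KO (42.9%), namely 1700116B05Rik, Gm12031 and Gm33973. 1700116B05Rik had 5.93 to 22.3 FPKM in ZH Het and 41 to 59.5 in ZH KO. Across the 141 genes the differences in the 2 lines had a Spearman rho of 0.50, a description over genes that share libraries and are not independent. C86187 had 101 to 177 FPKM in CabZ Het and 54.2 to 90.6 in CabZ KO and was not called there, and Gm43263 had 34.3 to 51.4 and 38.7 to 74.4. Malat1 had 0.278 to 2.29 and 0.293 to 1.75.

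**Figure D3:**
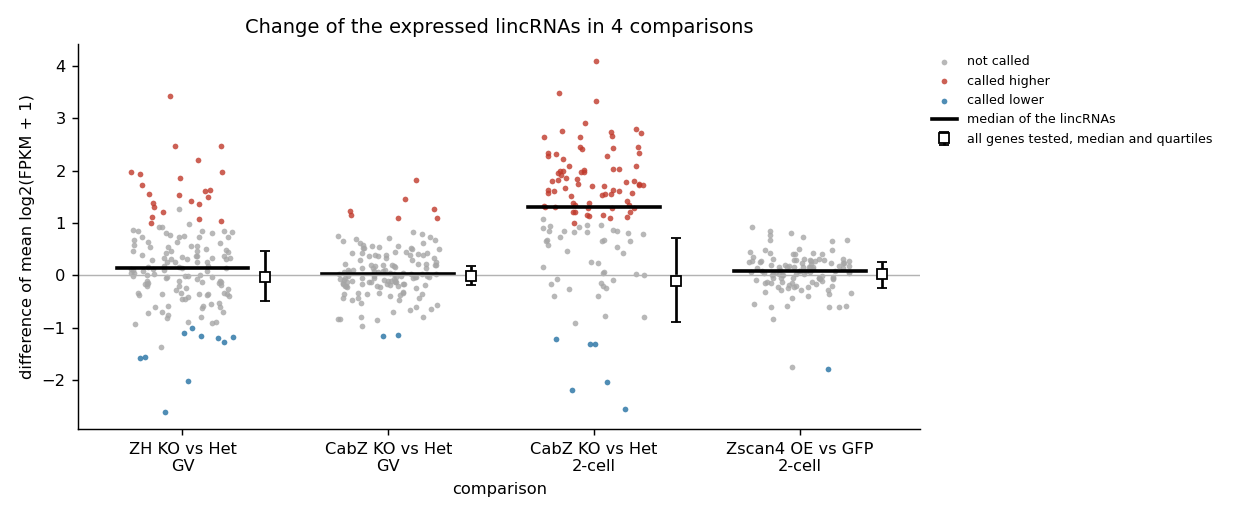
Each point is 1 lincRNA that passed the filter, and its height is the difference of group means of log2(FPKM + 1) in the comparison on the x axis. Black bars are medians of the lincRNAs and open squares the median and quartiles of all genes tested. The medians of the lincRNAs are 0.15, 0.03, 1.31 and 0.08 from left to right, and the CabZ 2-cell embryos stand apart from the median of all genes (-0.11).

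In CabZ 2-cell embryos most of the lincRNAs were higher in the KO. Of the 124 that passed the filter, 75 rose and 6 fell, where 16.9% of all 7798 genes tested rose and 20.4% fell. Since 21 of the 124 had a Het mean under 1 FPKM and passed through the KO libraries, the count was also made without them. Among the 102 with both means at 1 FPKM or more, 56 rose (54.9%) and 6 fell (5.88%), against 13.1% and 21.7% of all such genes. With no filter, all 152 were tested and 74 rose and 6 fell, where 5.18% of all 24301 genes rose and 6.15% fell. The mean was higher in KO for 134 of the 152, by more than 2-fold for 106. The median difference of the 124 was 1.31, against -0.11 for all genes. Of the scalings tried, shifting libraries to the same median moved these values to 1.55 and 0.13, and the values as deposited gave 1.81 and 0.48. The KO libraries were shallower, with 5819215 to 6330191 reads on genes against 7947341 to 8239483. Markers of the oocyte moved in the same direction as the lincRNAs. Of 12 listed, 10 had a higher mean in CabZ KO embryos, and of the 11 tested, Bmp15 (37 to 105 FPKM), Gdf9 (11.2 to 48.3), Mos (1.65 to 17.3) and Zp2 (2.72 to 10.6) rose, all of them made by the growing oocyte, although the sum over the list, most of it Dppa3, was 1660 to 2030 in Het and 1090 to 2540 in KO. Of 7 markers of the 2-cell embryo, Duxf3 and Gm5039 rose and Tdpoz4 fell, and their sums were 179 to 383 and 221 to 733. The granulosa and cumulus cell markers summed to 0.555 to 2.04 and 1.31 to 2.56. The part of these differences in the lincRNA result was not tested.

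Lower shares rose among protein-coding genes above the same floor in GV oocytes and among other noncoding genes. The floor does not match the levels of the sets. Of protein-coding genes that met the same level rule in the ZH libraries, 14.9% rose and 21.8% fell in CabZ KO embryos, with a median difference of -0.14 over 3401 genes. Of the 248 lincRNA genes tested that are not in the set, 29.4% rose and 14.1% fell, with a median of 0.19. Among antisense RNA genes 29.9% rose and among processed pseudogenes 18.3%. These shares are given side by side, with no test of the list.

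The largest rise was again that of 1700116B05Rik. It had 0.736, 1.11, 1.65 and 2.13 FPKM (4 to 12 reads) in CabZ Het embryos and 30.1, 41.1, 34.2 and 53.8 in CabZ KO, a difference of 4.09 ± 0.25 (limma adjusted p = 5.4e-05). Gm15767 (chr6:147242527-147243802) had 0.493, 0.691, 0.0983 and 2.67 FPKM in Het and 12.8, 18.9, 17.5 and 31.1 in KO (3.49 ± 0.39, limma adjusted p = 0.000233). Its Het mean was under 1 FPKM, so it passed the filter through the KO libraries, and its p is a description. The nearest protein-coding gene, Pthlh, which encodes parathyroid hormone-like protein, lies 8299 bp away and averaged 0.285 and 1.41 FPKM. Gm36307 (chr1:175574309-175578426) had 6.47, 1.62, 2.62 and 4.01 FPKM in Het and 17.9, 38.5, 32.2 and 44.7 in KO (2.91 ± 0.37, limma adjusted p = 0.000336). C87198 (chr12:56591059-56594997), whose window above is mostly repeat, had 2.11, 0.863, 1.02 and 3.17 FPKM in Het and 11.7, 14.9, 19.7 and 25.5 in KO (2.79 ± 0.32, limma adjusted p = 0.00025). In each of these 4 the groups did not overlap, which is a description, since they were picked from the largest rises. The share of all genes tested without overlap is not given here. Gm26917 had 1.35 to 6.89 and 27.7 to 73.3 FPKM (3.33 ± 0.42, limma adjusted p = 0.000335), and Gm42418 beside it averaged 2.63 and 14.3 (2.01 ± 0.32, limma adjusted p = 0.000876), the pair that adjoins or is the 18S pseudogene.

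RNAs named from other tissues moved as well. Malat1 had 10.9, 10.7, 6.82 and 15.2 FPKM in CabZ Het embryos and 53.2, 47.2, 28 and 33.6 in CabZ KO (1.80 ± 0.28, limma adjusted p = 0.000765). Snhg18, a host of small nucleolar RNAs, which guide chemical modification of ribosomal RNA, had 2.63 to 8.35 and 9.73 to 15.7 FPKM (1.35 ± 0.31, limma adjusted p = 0.00513). Epb41l4aos, also known as a snoRNA host, fell from 8.5 to 16.7 to 3.06 to 5.16 FPKM (-1.31 ± 0.24, limma adjusted p = 0.0017), and Snhg6 had 9.79 to 16.7 and 5.76 to 9.63 and was not called. Of the 3 hosts, 1 thus rose, 1 fell and 1 was not called.

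Few lincRNAs fell, and one of them was the most abundant. Gm10076, the near-copy of Rpl41, had 4500, 5020, 5340 and 4180 FPKM in CabZ Het embryos and 1060, 1040, 1540 and 995 in CabZ KO (-2.05 ± 0.19, limma adjusted p = 0.000163). Rpl41 itself averaged 988 FPKM (SD 147, n = 4) and 324 (SD 54.7, n = 4), so the values of both genes moved together, as they also did between GFP and Zscan4 OE, and reads cannot be assigned between them. 2010320M18Rik, 101 bp from the kinase subunit gene Pik3r2 on the opposite strand, had 39.6, 48.3, 64.3 and 75.7 FPKM and 6.11, 17.9, 7.83 and 6.13 (-2.55 ± 0.34, limma adjusted p = 0.000415). Gm17586, 167 bp from the transcription factor gene Mafg, had 78 to 114 and 10.8 to 28.8 (-2.20 ± 0.28, limma adjusted p = 0.000336), while Mafg averaged 1.48 and 0.884 FPKM (-0.39 ± 0.23, limma adjusted p = 0.182). Gm5 had 20.9 to 37.6 and 6.99 to 16.4 (-1.31 ± 0.28, limma adjusted p = 0.00356). None of the 6 that fell started in repeat-masked letters, compared with 28 of the 75 that rose (37.3%) and 13 of the 43 not called (30.2%). The median GC content of their windows was 60.3%, against 47.7% for those that rose.

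**Figure D4:**
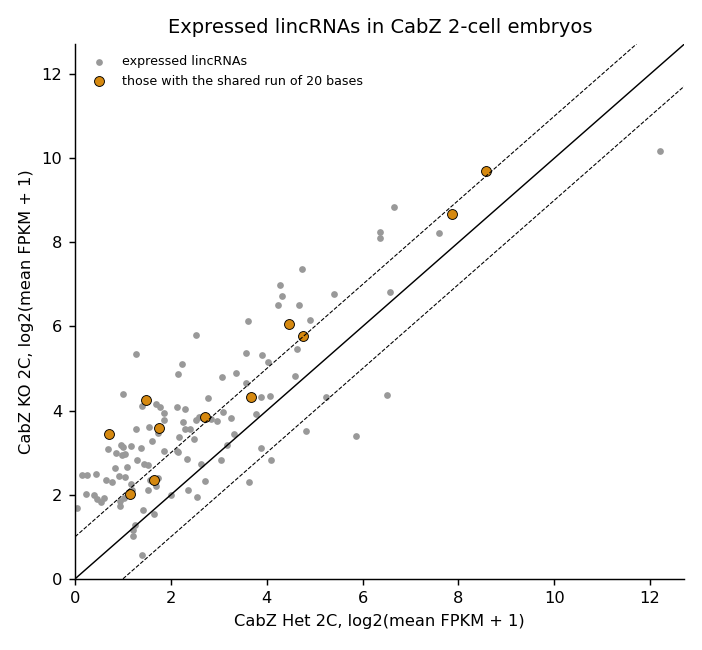
Mean level of each of the 124 tested lincRNAs in CabZ Het (x axis) and CabZ KO 2-cell embryos (y axis), as log2(mean FPKM + 1). The solid line marks equal levels and the dashed lines a difference of 1. The lincRNAs with the shared run of 20 bases are orange, and each of those plotted lies above the solid line, as do most of the 124.

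The lincRNAs linked by shared start sequence moved much as the other lincRNAs did. Of the 18 in the largest linked group, 16 were tested in the 2-cell table, and 11 rose and 0 fell. Of all the lincRNAs tested 60.5% rose and 4.84% fell, and of all genes tested 16.9% and 20.4%. The differences of the 16 ranged from 0.66 to 2.79, with a median of 1.34, which is close to the 1.31 of all the lincRNAs tested. Gm37724 had 336, 445, 394 and 341 FPKM in Het and 892, 724, 810 and 875 in KO (1.13 ± 0.17, limma adjusted p = 0.000695). Gm38025 had 228 to 237 and 391 to 420 FPKM (0.80 ± 0.14, limma adjusted p = 0.00161), under the fold change threshold. In CabZ GV oocytes, where 17 of the group were tested, the differences ranged from -0.34 to 0.65, with a median of 0.09.

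Set beside the oocytes, the lincRNAs had a lower median in Het and a higher one in KO embryos. The tables were normalised separately, so these values are a description. Over the 123 tested in the embryos and listed in both CabZ tables, the median of log2(FPKM + 1) was 2.65 in Het and 2.71 in KO oocytes, and 2.14 in Het and 3.44 in KO embryos. From GV to 2-cell, 47 were lower by more than 1 in the Het groups and 12 in the KO groups, while 21 and 42 were higher by more than 1. For the 49 that did not rise in KO embryos, the medians were 2.44 and 2.36 in the oocytes and 2.63 and 2.83 in the embryos. The 49 and the other 74 were both split off by the embryo values. For the 74 this fixes that their KO level exceeds their Het level there. Their counts of changes from GV to 2-cell are partly fixed by the same choice. For these 74 lincRNAs the median was 2.87 in Het and 3.07 in KO oocytes, and 1.77 in Het and 3.75 in KO embryos. Of the 74, 37 were lower by more than 1 in the Het groups and 5 in the KO groups, while 9 and 26 were higher by more than 1. Gm42980 (192, 184, 243 and 247 FPKM in CabZ Het oocytes) shows a decline in both, to 4.16 to 27.9 FPKM in Het and 24.3 to 44 in KO embryos (1.63 ± 0.46, limma adjusted p = 0.0141). Gm1070, 36.4 to 50.4 FPKM in Het oocytes, was at 0.483 to 1.28 in Het and 0.63 to 1.65 in KO embryos, ranges that overlap (2-sided exact permutation test, p = 0.657).

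The lincRNAs higher in ZH KO oocytes were nearly all higher in CabZ KO embryos as well. Of the 19 that were tested in both tables, 18 (94.7%) were among the 75 that rose in the embryos (24%), where 60.5% of all the lincRNAs tested in both rose. Among all 4525 genes tested in both tables, 32.6% of the 484 higher in ZH KO rose in the embryos, against 17.8% of the whole. The ZH libraries chose the lincRNAs, and some entered only through ZH KO. With a ZH Het mean of at least 1 FPKM, 9 of 10 (90%) rose, where 58.2% of such lincRNAs did, so the overlap is given as a description. They included Gm26909, with 12.7, 21.9, 16.2 and 24.3 FPKM in Het and 86.3, 89.9, 136 and 110 in KO embryos (2.45 ± 0.25, limma adjusted p = 0.000197), and Gm43263, with 2.33 to 3.26 and 3.17 to 22.3 (1.67 ± 0.45, limma adjusted p = 0.0113). Gm32496, which did not pass the filter, had 0 to 0.0857 and 0.155 to 0.819 FPKM (2-sided exact permutation test, p = 0.0286, the smallest that 4 against 4 allows). Of the 9 lower in ZH KO oocytes and tested in the embryos, 3 rose (Gm1965, Gm19757 and Gm839) and the other 6 were not called. Gm839 had 135, 41.9, 38.9 and 108 FPKM in Het and 260, 264, 270 and 302 in KO embryos (1.95 ± 0.39, limma adjusted p = 0.00265). Across the 124 genes the differences in ZH oocytes and CabZ embryos had a Spearman rho of 0.20. All 6 lincRNAs that rose in CabZ KO oocytes and were tested in the embryos rose there too. So did 71 of the 118 lincRNAs tested in both, and 16.9% of all genes tested in the embryos. The matching overlap over all genes is not given here. Gm12031, 1 of the 6, passed the oocyte filter through the KO libraries. Gm31717, the 1 that fell in CabZ KO oocytes and was tested in the embryos, also rose there. These comparisons share the CabZ line but no library.

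**Figure D5:**
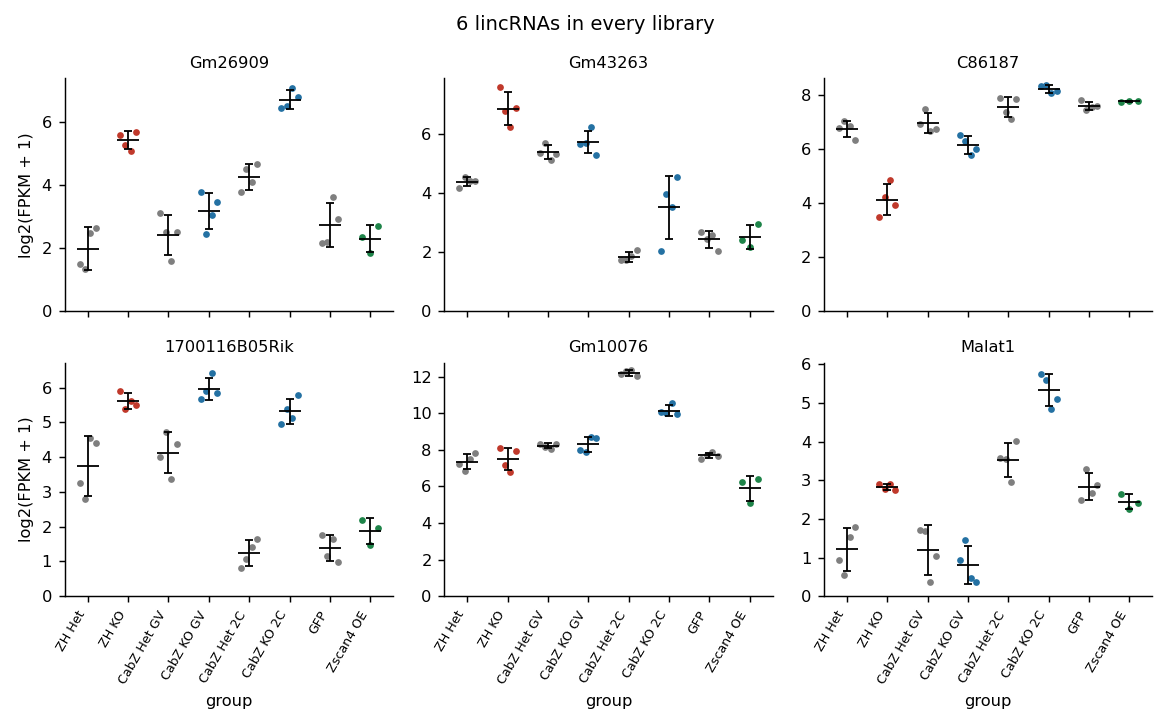
Level of 6 lincRNAs in all 31 libraries, as log2(FPKM + 1), by group. Points are libraries and bars the mean ± SD of 3 or 4. Gm26909 is high in ZH KO oocytes and CabZ KO embryos, C86187 is low in ZH KO oocytes, and 1700116B05Rik is high in all 3 KO groups.

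Between GFP embryos and those labelled Zscan4 OE, 1 of the 115 lincRNAs that passed the filter changed. By limma 0 rose, where 0.0233% of all 4293 genes tested rose, and 1 fell, where 1.42% fell. At an unadjusted p under 0.05 there were 15 of the 115 (13%), where 19.8% of all genes tested were below it. The one that fell was Gm10076, the near-copy of Rpl41, with 182, 207, 239 and 202 FPKM in GFP and 73.4, 33.7 and 82.5 in Zscan4 OE (-1.79 ± 0.29, limma adjusted p = 0.0244). Leaving out any one of the 4 GFP libraries raised the adjusted p to between 0.0567 and 0.081 and ended the call. The median difference of the 115 was 0.08, against 0.03 over all genes. 1700116B05Rik had 0.985 to 2.41 FPKM in GFP and 1.77 to 3.59 in Zscan4 OE, Gm37724 had 211 to 242 and 207 to 366, and Malat1 had 4.59 to 8.85 and 3.82 to 5.29. Of the 75 that rose in CabZ KO embryos, 67 were tested here and none was called. 1700010D01Rik, named after its values were seen, averaged 13.6 and 3.48 FPKM without reaching the call (-1.76 ± 0.40, limma adjusted p = 0.0729), and Gm4961 likewise averaged 8.93 and 16.4, under the fold change threshold (0.80 ± 0.16, limma adjusted p = 0.048).

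In ATAC-seq of CabZ GV oocytes, 99 of the 152 starts (65.1%) had a peak within 500 bp in at least 1 of the 6 libraries, and 3 had one in all 6. The share was 48.7% of all genes in the CabZ GV table, 58.6% of those averaging 1 FPKM or more, and 68.3% of the protein-coding ones among the latter. Peaks had been called per library at unequal depth, with 43399, 67074 and 111327 peaks in CabZ Het and 46070, 19160 and 29600 in CabZ KO. Starts with a peak numbered 32, 50 and 81 in the Het and 44, 22 and 28 in the KO libraries, and since these counts go with the number of peaks called, no difference between genotypes was read from them.

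The peaks at these starts had a median fold enrichment of 4 to 4.95 per library, against 4.33 to 4.68 for all genes in the CabZ GV table. Gm42980 and Gm36307 had a peak in 5 libraries, with 3.64 to 5.51-fold and 3.23 to 5.41-fold enrichment, and Gm1070 in 4. Gm26917 and Gm42418 had peaks of the same height, 87.6 to 340-fold, in all 6 libraries, beside the ribosomal RNA pseudogene. Of the abundant lincRNAs, Gm37724, Gm38025, Gm10076 and Gm26825 had none. The methods kept only ATAC-seq reads that aligned uniquely. These genes start in repeat-masked letters or are near-copies of another gene, and whether reads could be placed at their starts was not tested. In ZH oocytes, 16 of the 23 that were higher in KO had a peak (69.6%), as did 4 of the 10 lower ones. In CabZ oocytes, 1 of the 7 that rose and 91 of the 132 not called (68.9%) had one. In CabZ embryos, 53 of the 75 that rose had one (70.7%), as did 30 of the 43 not called (69.8%).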

How the data were processed

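RNA-seq covered GV oocytes and 2-cell embryos (31 libraries, 5819215 to 21869719 reads on genes), and ATAC-seq covered 6 GV libraries. Reads had been aligned to GRCm38/mm10 with STAR 2.5.3a or, for ATAC-seq, Bowtie2 2.3. The ZH and Zscan4 tables were deposited as FPKM over the whole gene span, to which the authors had added 0.01 or 0.001. Both CabZ tables were deposited as a score: the reads divided by span a second time, scaled to a fixed total, plus 0.01. That constant was removed, the value multiplied by span, and each library scaled to its own reads, which restores FPKM. This form was worked out from the values. The authors called peaks per library with MACS2, and the deposited peaks give a score, fold enrichment and -log10 q.

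Groups were compared within each table with limma 3.58.1 (R 4.3.3) on log2(FPKM + 1), over genes with a mean of 1 FPKM or more, with Benjamini-Hochberg adjustment and no block. A fold change on this scale understates that of low genes. A gene was called below an adjusted p of 0.05 and beyond 2-fold. Members below the filter were compared by exact permutation. Named were up to 5 called rises and 5 falls per comparison, the 6 highest in ZH Het, and members of 3 lists of studied RNAs. Others are named as chosen after their values were seen, or to complete a count or a set. The members and lists were chosen with earlier results of these data known. Start windows were read from RefSeq GRCm38.p6, with Python 3.11.15, and 1 window is not reported here. Fits were tested on simulated data. Alternatives covered the pseudocount, filter, scaling, fold threshold, variance trend, replicate block and each library left out.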

Additional observations from a re-analysis of the deposited data

Results flagged for a closer look

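Of 98 groups of 4 libraries checked, 5 held a library far from the rest, and chance gives about 1 in 20. Gm12031 stood at 0.841 FPKM in CabZ KO GV replicate 2, against 2.95 to 3.38 in the other 3. 2010320M18Rik stood at 17.9 FPKM in CabZ KO 2-cell replicate 2, against 6.11 to 7.83. Gm10076 stood at 1540 FPKM in CabZ KO 2-cell replicate 3, against 995 to 1060. Gm42980 stood at 24.3 FPKM in CabZ KO 2-cell replicate 1, against 43.9 to 44. The lincRNAs took 1.43% of the reads on genes in CabZ Het GV replicate 2, against 1.25 to 1.26%.

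Some lincRNAs moved in opposite directions in 2 comparisons, with every KO library on one side of every Het library in each, among 39 pairs of comparisons checked. The tables were normalised separately, so the difference between comparisons was not tested. On the log2(FPKM + 1) scale Gm15631 differed by 0.93 in ZH and by -1.16 in CabZ GV oocytes. Gm31717 differed by 0.85 in ZH GV oocytes, by -1.15 in CabZ GV oocytes and by 1.84 in CabZ 2-cell embryos. From CabZ GV oocytes to CabZ 2-cell embryos the difference went from 0.57 to -2.55 for 2010320M18Rik, from 0.29 to -2.20 for Gm17586 and from -0.48 to 1.95 for Gm839.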

How the results depend on the processing

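In ZH oocytes 33 lincRNAs were called, against 55 with a pseudocount of 0.1, 17 when the filter was raised to 5 FPKM (53 tested), 82 without the fold change threshold and 56 with the fold change as a ratio of mean FPKM. In CabZ GV oocytes 9 became 15, 5, 38 and 19 under the same alternatives. In CabZ 2-cell embryos 81 were called, and each alternative tried gave 54 to 98. Between GFP and Zscan4 OE, 1 became 0 with no filter, 0 with the replicate block, 0 without any one GFP library, 2 without the fold change threshold, and 0 without lincRNAs near-identical to another gene or beside the ribosomal RNA pseudogene, an alternative chosen after seeing the data. Leaving out each library in turn gave 29 to 36 calls in ZH, 8 to 10 in CabZ GV, 76 to 86 in CabZ 2-cell and 0 to 1 for Zscan4 OE. Of 99 starts with a peak, 37 had one at -log10 q of at least 5. Replicate numbers did not pair the libraries, since correlations of same-numbered libraries ranged from -0.41 to 0.40. The replicate block gave 34, 9, 81 and 0 calls. In ZH, correlations across numbers ranged from -0.44 (Het 2 with KO 1) to 0.48 (Het 4 with KO 1). There Het 1 and 2 correlated above 0 with KO 2 and 3, and Het 3 and 4 with KO 1 and 4. No fit allowed for this grouping. The causes were not tested. Of 677 alternatives for the 46 called values of named genes, 660 kept the call and the sign, 17 lost the call and 0 reversed. Of 1004 for the 71 values that were not called, 20 were called and 46 took the opposite sign, by at most 0.4 and with 0 of them called. Gm42980 in 2-cell embryos lost it with no filter (adjusted p = 0.0562), and Epb41l4aos and Gm5 lost it on the values as deposited (-0.85 and -0.74). Depth limits genes such as Gm12031, read from 2 to 9 reads per CabZ Het GV library.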

Other observations

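Grouped by the kind of symbol, 52 of 81 tested lincRNAs with a Gm number, 15 of 29 with a RIKEN symbol and 8 of 14 with another name rose in CabZ KO 2-cell embryos, and 3, 2 and 1 fell. The median differences were 1.55, 1.10 and 1.11.

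Besides the group of 18 linked by shared start sequence, 5 smaller ones were found, namely A730082K24Rik with E330016L19Rik and Gm2309, AU020206 with Gm4961, D930030I03Rik with Gm36307, Gm13465 with Gm43303, and Gm17575 with Platr30. The longest run that D930030I03Rik and Gm36307 shared was a plain TG repeat of 24 bases. That of AU020206 and Gm4961 was 20 bases, the minimum counted. The near-identical pair Platr30 and Gm17575 had means of 5.01 and 4.29 FPKM in CabZ Het and 13.4 and 10.8 in CabZ KO 2-cell embryos. Gm2309 and E330016L19Rik had 7.45 and 4.58 in Het and 14.7 and 9.09 in KO. The reads of each pair cannot be assigned to 1 member.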
